A study of Mus musculus with 6 samples.

Results

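Genes that build ribosomes were examined in mouse Th17 cultures, where 39 of 40 listed genes of ribosome biogenesis and the nucleolus had a row of their own among the 10041 rows of the deposited expression table. The 40 genes were listed by name, with no threshold on a measured value, and a row was taken where its gene symbol equaled a listed name. The remaining gene, Ebna1bp2, shared 1 row with D4Ertd617e and is given apart. In both groups naive CD4 T cells were stimulated for 48 h through plate-bound anti-CD3e at 10 µg/ml and through anti-CD28 at 1 µg/ml. TGFb1 at 2.5 ng/ml, IL-23 at 10 ng/ml and IL-6 at 20 ng/ml were added to make them Th17 cells, which are known for their IL-17. Cultures of the control group received the vehicle DMSO, and those of the other group received oligomycin (2.5 ng/ml), an inhibitor of the mitochondrial ATP synthase and so of oxidative phosphorylation. RNA was sequenced from 3 libraries of each group. The labels give no strain, sex or age of the mice and do not say whether libraries came from separate animals or cultures, so p-values measure the spread between these libraries, which may be technical.

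Ribosomes are assembled mainly in the nucleolus. RNA polymerase I transcribes a long precursor of the ribosomal RNAs, small nucleolar RNA-protein particles mark it for methylation and pseudouridylation, and large assemblies of proteins cleave and fold it while ribosomal proteins are added, until the small and the large subunit leave for the cytoplasm. The process consumes much ATP and GTP, is driven by growth signals and by the transcription factor Myc, and is strongly induced when naive T cells are activated.

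Values are FPKM, the fragments of a gene scaled by the length of its transcripts and by the mapped fragments of the library, as the authors deposited them; the sequencing depth behind them is unknown, because rows with low values showed no common step. Changes were fitted with limma as oligomycin minus DMSO on log2(FPKM + 1), a scale that understates the change of low genes, with p-values adjusted by Benjamini-Hochberg over 9986 tested genes and a call at an adjusted p under 0.05. Library medians ran from 13.8 to 14.7 FPKM. All 6 CD4 T cell markers were present, with summed levels of 779 to 929 FPKM with DMSO and 774 to 893 with oligomycin. The Th17 cytokine genes Il17a and Il17f were present in all libraries. Il17a stood at 230.4 to 261 FPKM with DMSO and 10.8 to 15.4 with oligomycin, and Il17f at 1354 to 1609 and 227 to 377. Of the other-cell markers, 0 of 5 B cell, 0 of 5 myeloid, 0 of 4 erythroid and 0 of 2 gamma delta T cell genes had a row. Cd8b1 (2.41 to 3.30 FPKM in all libraries) had a row, as did Klrd1, at 12.8 to 34.6 FPKM with DMSO and 5.53 to 23.8 with oligomycin. Klrd1 is known from NK cells and some T cells. What part the lower Il17a and Il17f or Klrd1 had in the gene changes was not tested.

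The mRNAs of the ribosome assembly line were, with 4 exceptions, not called different between the groups. Of the 39 genes, all of which passed the filter on low values, 3 rose (Polr1a, Rrp9 and Nob1), 1 fell (Utp3) and 35 were not called. Among all tested genes 14% rose and 16.1% fell, 30.2% in all (1403 and 1610 genes, or 1914 and 1276 after scaling to a common FPKM sum without small RNA rows), and among the 5732 tested genes with a DMSO mean inside the range of the 39 genes 29.5% were called. The log2 changes of the 39 genes ran from -0.56 to 0.45, with a median of 0.06. The median was -0.0044 over all tested genes. Over the 5732 genes in the range of level of the 39 it was -0.09, and 560 of them rose and 1132 fell. In these bulk samples fewer cells of a type and less RNA per cell cannot be told apart. The median size of the changes without sign was 0.18, against 0.30 over all tested genes and 0.27 over those in the same range of level. The standard errors were alike, with medians of 0.14 for the 39 genes and 0.14 for the genes of that range.

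The intervals show how large a change the data leave room for. The unadjusted 95% interval of the log2 change lay inside -1 to 1, that is within a doubling or halving on the log2(FPKM + 1) scale, for 39 of 39 genes, against 77.2% of all tested genes and 83.3% of those in the same range of level. It lay inside -0.5 to 0.5 for 20 of the 39 genes (51.3%), against 28.4% and 36.3%. A smaller change of any 1 gene may thus have gone uncalled. Every oligomycin library lay above every DMSO library in 5 of the 39 genes and below in 2, against 23.1% and 24.3% of all tested genes. The counts of calls were sensitive to single libraries: the number that rose was 0 without DMSO replicate 1, 2 or 3, 1 without oligomycin replicate 1 or 3 and 2 without oligomycin replicate 2. The number that fell was 0 without DMSO replicate 1, 2 or 3 or oligomycin replicate 3, and 5 without oligomycin replicate 1. Calls over all tested genes changed too, from 1403 that rose and 1610 that fell with all libraries. Without DMSO replicate 1, 2 or 3, 816, 982 and 780 rose and 1071, 1040 and 989 fell. Without oligomycin replicate 1, 2 or 3, 1387, 1025 and 941 rose and 1861, 1399 and 1111 fell. Replicate numbers here are those of the table's columns.

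**Figure D1:**
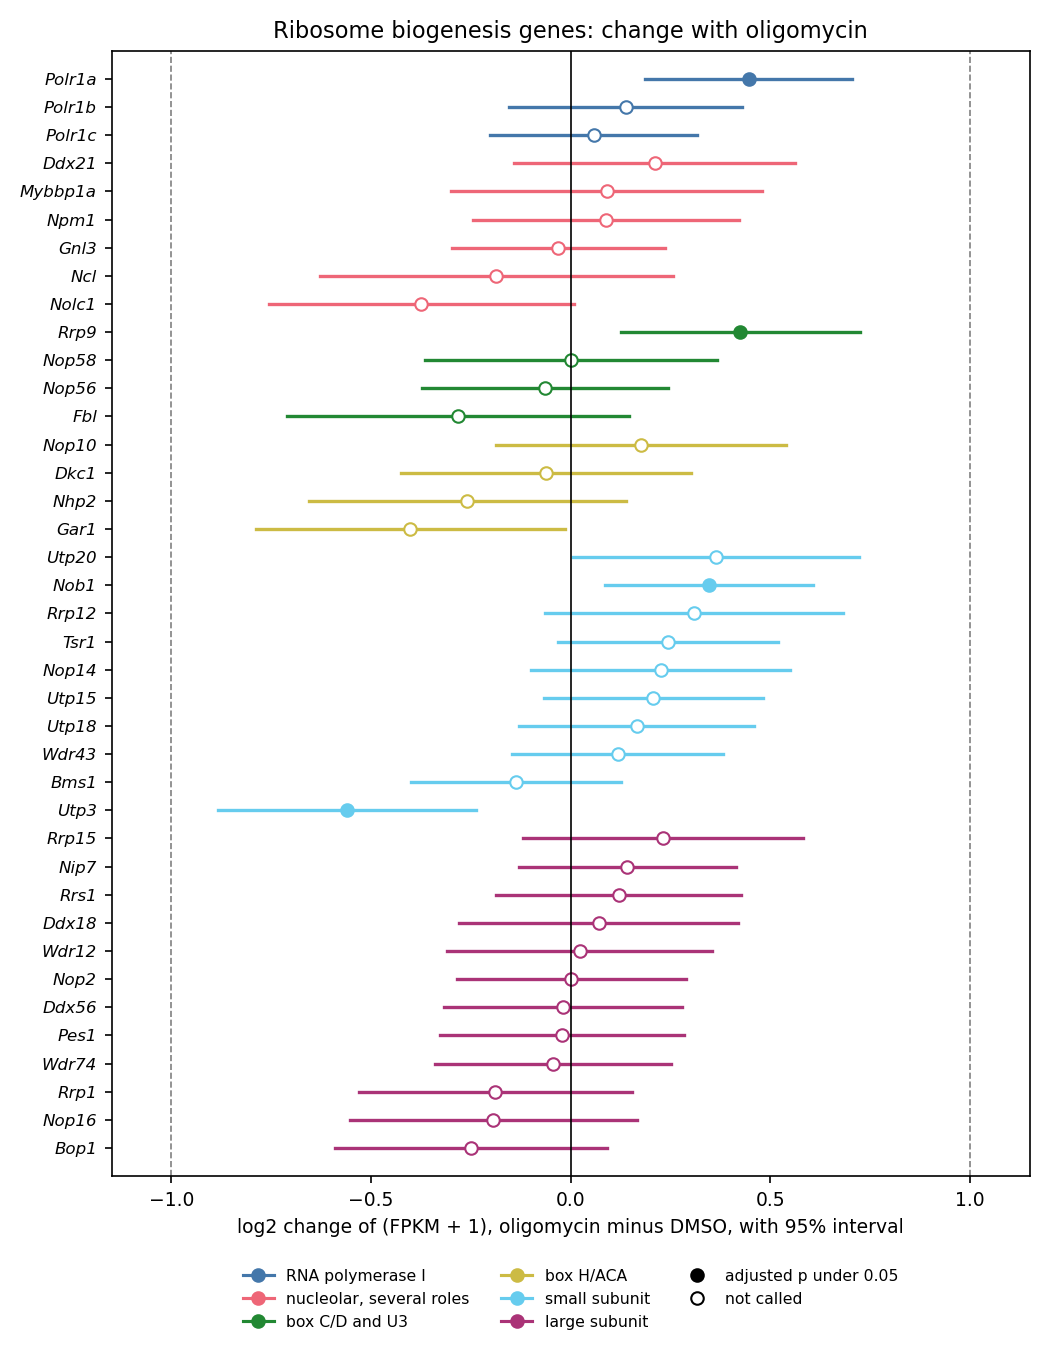
Log2 change of each of the 39 genes, oligomycin minus DMSO on log2(FPKM + 1), with its unadjusted 95% interval (bars), grouped by role; filled points have a limma adjusted p under 0.05. All 39 intervals lie between the dashed lines at -1 and 1, and the 4 filled points are Polr1a, Rrp9, Nob1 and Utp3.

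Upstream sequence is shown for the 4 called genes, and for 2 genes that carry the E-box bound by Myc and its partners (CACGTG, which reads the same on both strands) before their start. Each line gives the 250 bases before the start of the gene, 5′ to 3′ on the gene's strand, from RefSeq (GRCm38.p6); capitals mark CACGTG.
Polr1a, chr6:71908803-71909052, plus strand: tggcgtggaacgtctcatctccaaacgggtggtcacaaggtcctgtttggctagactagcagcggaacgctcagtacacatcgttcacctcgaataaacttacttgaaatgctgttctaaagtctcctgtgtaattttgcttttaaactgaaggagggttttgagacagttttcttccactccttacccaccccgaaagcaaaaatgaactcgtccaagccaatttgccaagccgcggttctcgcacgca
Rrp9, chr9:106477059-106477308, plus strand: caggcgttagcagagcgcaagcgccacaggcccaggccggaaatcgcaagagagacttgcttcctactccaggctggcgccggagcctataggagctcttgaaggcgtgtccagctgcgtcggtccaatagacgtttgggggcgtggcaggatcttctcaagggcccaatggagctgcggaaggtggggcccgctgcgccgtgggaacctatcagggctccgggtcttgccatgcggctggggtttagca
Nob1, chr8:107425039-107425288, minus strand: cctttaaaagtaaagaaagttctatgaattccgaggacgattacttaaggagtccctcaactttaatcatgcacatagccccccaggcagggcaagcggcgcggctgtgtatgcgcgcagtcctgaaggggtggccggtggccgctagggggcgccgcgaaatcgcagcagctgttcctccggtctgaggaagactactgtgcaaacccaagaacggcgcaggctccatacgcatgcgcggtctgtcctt
Utp3, chr5:88554212-88554461, plus strand: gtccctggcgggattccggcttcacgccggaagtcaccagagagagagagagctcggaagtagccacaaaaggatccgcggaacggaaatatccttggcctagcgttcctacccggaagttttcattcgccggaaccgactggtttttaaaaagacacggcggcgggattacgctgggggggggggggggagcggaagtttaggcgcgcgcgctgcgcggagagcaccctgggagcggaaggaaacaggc
Nop2, chr6:125131633-125131882, plus strand: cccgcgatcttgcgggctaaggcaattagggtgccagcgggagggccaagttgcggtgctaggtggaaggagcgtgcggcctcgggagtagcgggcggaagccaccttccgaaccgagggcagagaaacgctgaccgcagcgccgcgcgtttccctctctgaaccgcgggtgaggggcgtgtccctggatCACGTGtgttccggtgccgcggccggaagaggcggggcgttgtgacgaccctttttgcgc
Utp18, chr11:93885767-93886016, minus strand: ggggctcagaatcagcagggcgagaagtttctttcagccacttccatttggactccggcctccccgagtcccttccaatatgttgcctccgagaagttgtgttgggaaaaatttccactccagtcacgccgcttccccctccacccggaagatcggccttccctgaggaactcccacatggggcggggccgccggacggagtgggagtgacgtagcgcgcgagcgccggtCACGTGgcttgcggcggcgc
Over windows of 300 bases (the 250 bases before and the first 50 bases of the gene), CACGTG occurred in 7 of the 34 genes that matched a window by symbol (20.6%): Nop2, Utp18, Utp20, Pes1, Mybbp1a, Tsr1 and Wdr43. Fbl, Rrp12, Bop1, Rrs1 and Npm1 had no window. It occurred in 12.7% of the 7104 tested genes with a window and in 8.09% of all 27025 genes with one. A match is a string of letters and not a measured binding site. None of these 7 genes was called, and their log2 changes ran from -0.02 (Pes1) to 0.36 (Utp20).

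RNA polymerase I is the enzyme that transcribes the ribosomal RNA precursor. Polr1a encodes its largest subunit (XLOC_016619, chromosome 6, 71909053 to 71979360, GRCm38, plus strand, annotated with 34 exons). It stood at 19.9, 20.4 and 22.1 FPKM in the DMSO libraries and at 31.8, 27.3 and 27.3 in the oligomycin libraries. All oligomycin libraries lay above all DMSO libraries, with means of 20.8 ± 1.16 (SD, n = 3) and 28.8 ± 2.59 (n = 3), a 1.38-fold higher mean. The log2 change was 0.45 (SE 0.11, limma adjusted p = 0.0196). It was 0.42, 0.43 and 0.49 without DMSO replicate 1, 2 or 3, and in each of these cases the call was lost (adjusted p = 0.0735, 0.0638 and 0.0504).

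The other subunits measured were not called. Polr1b, the second largest subunit, stood at 30.8, 33.1 and 33.8 FPKM with DMSO and 41.4, 31.3 and 35.8 with oligomycin, so that the groups overlapped (log2 change 0.14, 95% interval -0.15 to 0.43). Polr1c, a subunit that RNA polymerase III also uses, stood at 102.6, 100.6 and 91.3 FPKM with DMSO and 98.2, 98.7 and 109.6 with oligomycin. Its log2 change was 0.06 (95% interval -0.20 to 0.32). Thus these 3 subunits had positive changes, of which only that of Polr1a passed the test. Further subunits, outside the 39 genes, had changes of -0.14 (Polr1d), 0.0066 (Polr1e), 0.11 (Znrd1), 0.15 (Cd3eap) and 0.26 (Twistnb). None of these was called.

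Proteins of the nucleolus with several roles held the most abundant transcript of the 39. Npm1, the gene of nucleophosmin, a chaperone of ribosome particles and histones, stood at 498, 439.9 and 515 FPKM with DMSO and 573, 463 and 511 with oligomycin (log2 change 0.09, 95% interval -0.24 to 0.42). Its groups overlapped. Ncl, the gene of nucleolin, which binds the precursor RNA, stood at 72.0, 67.3 and 81.1 FPKM with DMSO and 85.8, 63.1 and 48.9 with oligomycin. Its oligomycin libraries thus included both the highest and the lowest of the 6 values (log2 change -0.19, 95% interval -0.63 to 0.26). Without oligomycin replicate 3 the change of Ncl was 0.0072, and without oligomycin replicate 1 it was -0.39.

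Nolc1, which encodes a phosphoprotein that escorts small nucleolar RNPs, had the smallest p of these 6 genes. It stood at 51.5, 60.2 and 63.9 FPKM with DMSO and 56.2, 43.6 and 36.6 with oligomycin. Only oligomycin replicate 1 reached the DMSO range (log2 change -0.37, adjusted p = 0.124), and without that library the change was -0.53 (adjusted p = 0.0238). Gnl3, the GTPase nucleostemin, had the largest p, at 71.5, 81.2 and 85.8 FPKM against 81.0, 78.7 and 73.2 (log2 change -0.03, 95% interval -0.30 to 0.24). Mybbp1a, a nucleolar protein that binds Myb and acts in ribosomal RNA synthesis, and Ddx21, an RNA helicase of ribosomal RNA transcription and processing, had changes of 0.09 and 0.21 and were not called. The sign of Gnl3 turned under quantile normalization (0.13).

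**Figure D2:**
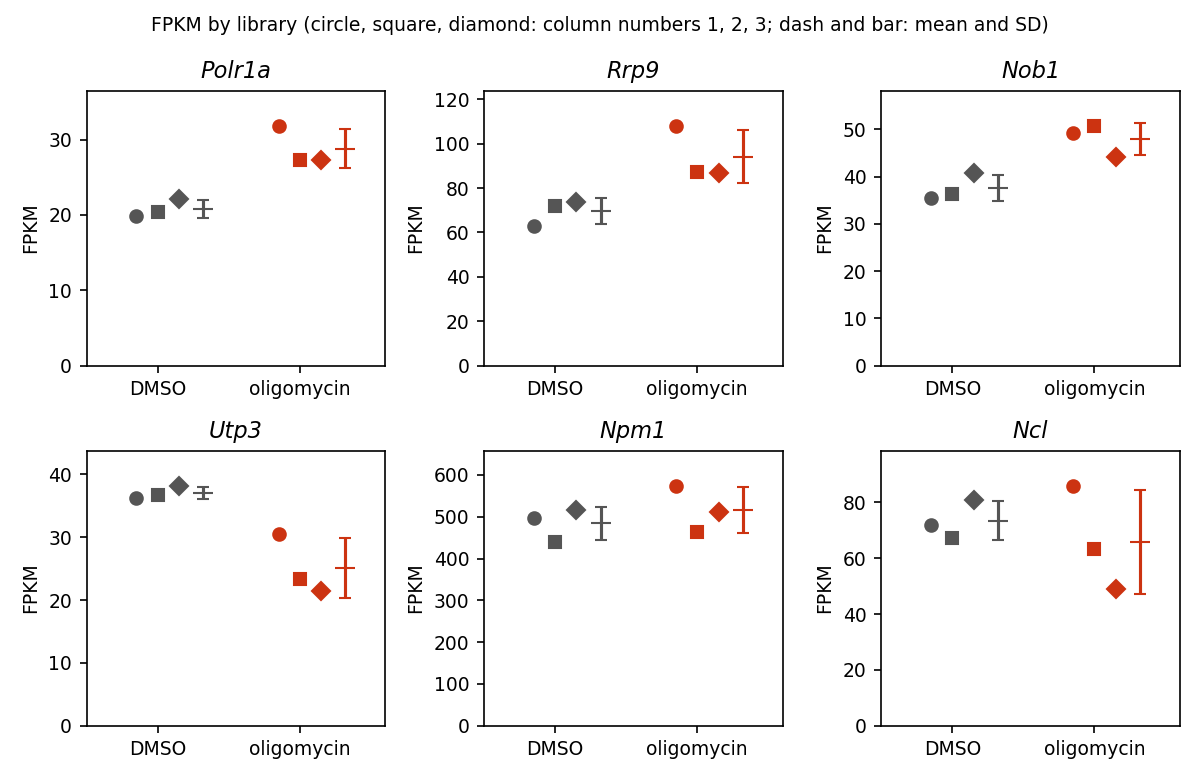
FPKM in every library for the 4 called genes (Polr1a, Rrp9, Nob1, Utp3) and for Npm1 and Ncl, with DMSO in grey and oligomycin in red; symbols are the column numbers, which are not used to pair libraries, and the dash with its bar is the mean ± SD of 3 libraries. The groups are apart in the 4 called genes and overlap in Npm1 and Ncl.

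Box C/D particles methylate ribosomal RNA at sites picked by their guide RNAs. Their methyltransferase fibrillarin (Fbl) had the lowest level of the 39 genes, at 9.88, 11.3 and 10.6 FPKM with DMSO and 10.2, 10.0 and 6.01 with oligomycin. Oligomycin replicate 3 was the lowest and the other oligomycin libraries lay inside the DMSO range (log2 change -0.28, 95% interval -0.71 to 0.15). The scaffold proteins of the particle, Nop56 and Nop58, had changes of -0.06 (95% interval -0.37 to 0.24) and 0.00099 (-0.36 to 0.37). Nop58 stood at 152, 154 and 174 FPKM with DMSO and 197, 133 and 155 with oligomycin, where the oligomycin libraries spanned the whole DMSO range. Both rows share their locus with rows of small nucleolar RNAs that these genes host in introns. The row of Nop56 also shares its locus with that of Idh3b, which fell from 74.1 ± 4.52 to 56.8 ± 6.88 FPKM (limma adjusted p = 0.0494).

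Rrp9 encodes a protein of the U3 particle, the box C/D particle that guides cleavage of the precursor instead of methylation (XLOC_021315, chromosome 9, 106477309 to 106485415, plus strand, annotated with 15 exons). It stood at 63.0, 72.0 and 73.9 FPKM with DMSO and 107.8, 87.4 and 87.0 with oligomycin. All oligomycin libraries lay above all DMSO libraries, with means of 69.6 ± 5.82 and 94.0 ± 11.9, a 1.35-fold higher mean. The log2 change was 0.42 (SE 0.13, adjusted p = 0.0407). The call was lost without DMSO replicate 1, 2 or 3 (adjusted p = 0.142, 0.0830 and 0.0846) and with oligomycin replicate 1 or 3 left out (0.0715 and 0.0641), with changes between 0.32 and 0.48.

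Box H/ACA particles convert uridine to pseudouridine. Of their 4 core genes 0 were called; Gar1 had an unadjusted p of 0.0433. Gar1, a core protein with glycine- and arginine-rich ends, stood at 17.9, 15.6 and 14.1 FPKM with DMSO and 15.1, 10.7 and 9.86 with oligomycin. The groups overlapped through oligomycin replicate 1 (log2 change -0.40, adjusted p = 0.105), and without it the change was -0.58 (adjusted p = 0.0183). Nhp2, the RNA-binding subunit, went the same way, at 157, 167 and 152 FPKM against 173, 108 and 124 (change -0.26, adjusted p = 0.287), and at -0.45 without that library (adjusted p = 0.0255).

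Dkc1, the pseudouridine synthase dyskerin, had the largest p of the 4, at 69.0, 72.0 and 80.1 FPKM with DMSO and 86.6, 57.3 and 70.3 with oligomycin (log2 change -0.06, 95% interval -0.42 to 0.30). Nop10, a small scaffold protein and the second most abundant of the 39 genes, stood at 265, 211 and 220.2 FPKM with DMSO and 302, 220.04 and 267 with oligomycin (log2 change 0.18, 95% interval -0.19 to 0.54). The 4 core proteins thus had changes of either sign. The change of Dkc1 was 0.09 under quantile normalization.

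Factors of the small subunit held a rise and a fall. Of 10 genes Nob1 rose, Utp3 fell and 8 were not called, and the changes of 8 of the 10 were positive, with a median of 0.22. Over all tested genes 30.2% were called and 4957 of 9986 changes were positive. In the range of level of the 39 genes 2311 of 5732 changes were positive. Utp3 encodes a component of the small subunit processome, the early particle that folds and cleaves the precursor (XLOC_015301, chromosome 5, 88554483 to 88556083, plus strand, annotated with 1 exon, so without introns). It stood at 36.3, 36.6 and 38.1 FPKM with DMSO and 30.5, 23.3 and 21.4 with oligomycin. All oligomycin libraries lay below all DMSO libraries, with means of 37.0 ± 0.946 and 25.1 ± 4.78, a 1.48-fold lower mean. On the log2 scale Utp3 fell by 0.56 (SE 0.14, adjusted p = 0.0191), further than any other of the 39 genes moved. The call was lost without DMSO replicate 1, 2 or 3 (adjusted p = 0.0530, 0.0512 and 0.0695) and without oligomycin replicate 3 (change -0.46, adjusted p = 0.0654).

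Nob1 encodes the endonuclease that makes the last cut of the small subunit RNA, in the cytoplasm (XLOC_020677, chromosome 8, 107412489 to 107425038, minus strand, annotated with 9 exons). It stood at 35.5, 36.3 and 40.7 FPKM with DMSO and 49.2, 50.6 and 44.0 with oligomycin. All oligomycin libraries lay above all DMSO libraries, with means of 37.5 ± 2.77 and 47.9 ± 3.45, a 1.28-fold higher mean. The log2 change was 0.35 (SE 0.11, adjusted p = 0.0497). This call was lost without any 1 of the 6 libraries (adjusted p between 0.0627 and 0.156) and without the intensity trend (0.0628).

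The uncalled small subunit genes among these 10 were mostly on the positive side. In the list of 45 further small subunit genes, 23 changes were positive and 22 negative, with a median of 0.03. Utp20, a very long scaffold protein of the processome, stood at 14.6, 12.5 and 16.2 FPKM with DMSO and 23.2, 16.6 and 17.2 with oligomycin, where the groups did not overlap (log2 change 0.36, adjusted p = 0.112). Rrp12, which acts in export of the particles, and Tsr1, a GTPase-like factor of late maturation, had changes of 0.31 and 0.24 (adjusted p = 0.182 and 0.157), and the groups of Tsr1 did not overlap. Nop14, Utp15, Utp18 and Wdr43, further processome components, had changes of 0.23, 0.21, 0.17 and 0.12. Wdr43 had the largest p of the 10, at 75.7, 77.0 and 81.2 FPKM against 93.6, 77.7 and 83.5 (adjusted p = 0.461). Bms1, a processome GTPase, was below in all oligomycin libraries by little, at 38.1, 39.8 and 39.3 FPKM against 37.7, 37.6 and 31.3 (change -0.14, adjusted p = 0.394).

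In the large subunit 0 of 12 genes were called, and 0 had an unadjusted p under 0.05 in limma, against 6 of the 39 genes and 4270 of all 9986 tested genes. Their changes ran from -0.25 to 0.23 with a median of -0.0090, and 8 of the 12 intervals lay inside -0.5 to 0.5. Pes1, Bop1 and Wdr12 form a complex that processes the large subunit RNAs. Pes1 stood at 35.7, 44.8 and 37.1 FPKM with DMSO and 42.8, 38.4 and 34.4 with oligomycin (log2 change -0.02, 95% interval -0.33 to 0.28). Bop1 had the smallest p of the 12 genes, at 49.98, 60.0 and 56.1 FPKM against 51.9, 50.7 and 37.7 (change -0.25, adjusted p = 0.234). Wdr12 stood at 16.4, 15.6 and 17.0 FPKM with DMSO and 20.6, 14.5 and 15.3 with oligomycin (change 0.02, 95% interval -0.31 to 0.35). In all 3 genes of the complex the groups overlapped.

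Nop2, a methyltransferase of the large subunit RNA, had the largest p of the 12, at 80.4, 95.02 and 90.8 FPKM with DMSO and 98.8, 81.1 and 86.9 with oligomycin (log2 change 0.0018, 95% interval -0.29 to 0.29). Among the other factors, Rrp15, Nip7, Rrs1 and the helicase gene Ddx18 had changes from 0.23 to 0.07, and Wdr74, the helicase gene Ddx56, Rrp1 and Nop16 had changes from -0.02 to -0.19. Rrs1 helps to place the particle that carries the small ribosomal RNA made by RNA polymerase III. The row that combines D4Ertd617e with Ebna1bp2, a further factor of the large subunit, stood at 78.9, 78.0 and 78.5 FPKM with DMSO and 84.2, 62.7 and 62.2 with oligomycin (adjusted p = 0.346), and the share of either gene in it is not known.

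Most of the 39 genes shared the highest library of each group. In 36 of them oligomycin replicate 1 was the highest of its group, while among all tested genes that library was the highest of its group in 41.6%. The median deviation of the 39 genes from their mean over the 6 libraries was 0.24 on the log2(FPKM + 1) scale in oligomycin replicate 1 and -0.06 and -0.05 in replicates 2 and 3. In the DMSO libraries it was -0.07, -0.03 and 0.05. DMSO replicate 3 was the highest of its group in 26 of the 39 genes (28.4% of all tested genes). DMSO replicate 1 was the lowest in 27, for which no share over all tested genes was computed. Further genes of the pathway, 141 in number, had medians of 0.14, -0.08 and -0.03 in oligomycin replicates 1, 2 and 3. The same medians over all tested genes lay between -0.05 and 0.04 in every library. Without oligomycin replicate 1 the median change of the 39 genes was -0.06 instead of 0.06, and 5 genes fell, Utp3, Gar1, Nolc1, Nhp2 and Nop16 (the last with an adjusted p = 0.0486), while 1861 of 9915 tested genes fell in that setting. The only gene that rose there was Polr1a. What set oligomycin replicate 1 apart in these genes was not tested.

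**Figure D3:**
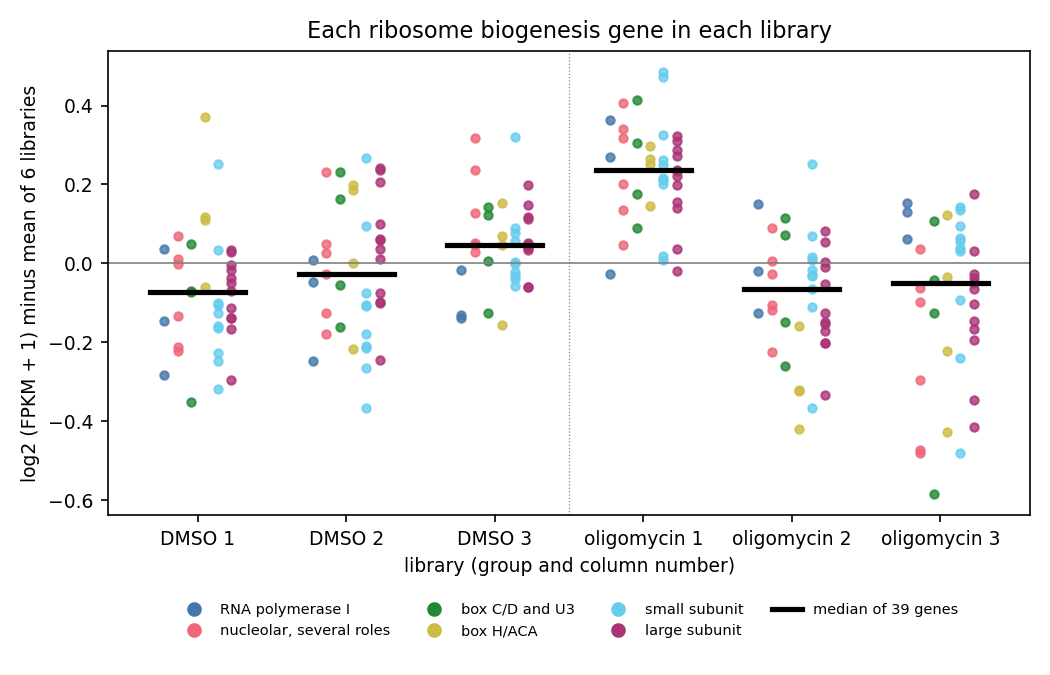
Level of each of the 39 genes in each library as log2(FPKM + 1) minus the gene's mean over the 6 libraries, with points colored by role and black bars at the median of the 39 genes. The median is 0.24 in oligomycin replicate 1 and between -0.07 and 0.05 in the 5 other libraries.

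Further genes of the same pathway were read from the same fit. Of 141 tested genes in 6 lists 14 rose, 5 fell and 122 were not called (13.5% called, against 30.2% of all tested genes), with a median change of -0.0067. In the RNA polymerase I list 1 of 13 rose and 0 fell, in the small subunit list 3 of 45 rose and 0 fell, and in the large subunit list 8 of 49 rose and 1 fell. In the list of the RNA exosome, which trims the precursors, and of other trimming factors, 0 of 15 rose and 2 fell. Those 2 were Eri1 and Skiv2l2, and the tested genes of exosome subunits were not called. The lists of RNase MRP, which cuts the precursor, and of small nucleolar RNP assembly each had 1 gene that rose and 1 that fell, of 8 and 11. Without DMSO replicate 1, 2 or 3 the numbers over all 6 lists were 6, 7 and 9 that rose and 1, 2 and 1 that fell. Without oligomycin replicate 1, 2 or 3 they were 9, 9 and 11 that rose and 10, 2 and 2 that fell.

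Mdn1, a giant ATPase that strips assembly factors from the large subunit, had the largest rise of these genes, from 9.27 ± 1.20 to 23.9 ± 2.17 FPKM (log2 change 1.28, adjusted p = 0.00032). Nsa2, another factor of the large subunit, rose from 17.2 ± 1.33 to 28.1 ± 3.02 FPKM, and Urb1 from 8.82 ± 0.923 to 13.0 ± 1.006 (adjusted p = 0.00459 and 0.0155). Pelp1, which belongs to a complex of late large subunit maturation, fell to 14.6 ± 1.92 from 19.4 ± 0.919 FPKM (adjusted p = 0.0456). Within the small subunit processome Pwp2, Nol6 and Wdr46 rose, by 0.54, 0.65 and 0.51 (adjusted p = 0.00908, 0.0119 and 0.0215). Taf1a, of the factor that brings RNA polymerase I to its promoter, rose from 3.29 ± 0.831 to 6.62 ± 0.744 FPKM (adjusted p = 0.00882).

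Among the trimming enzymes Eri1 and Skiv2l2, the helicase that feeds the exosome, fell, with changes of -0.48 and -0.38 (adjusted p = 0.0224 and 0.0491). In RNase MRP the protein gene Pop4 fell by 0.54 on the log2 scale and Rpp38 rose by 0.48 (adjusted p = 0.00562 and 0.0440). In the assembly list Znhit6 rose by 0.49 and Rpap3 fell by 0.39 (adjusted p = 0.0338 and 0.0473). Mdn1, Nsa2, Pwp2, Nol6, Taf1a and Pop4 were called in each of the 15 settings run, those of the report and the alternatives. Urb1 was called in 14 of them (not without DMSO replicate 2, adjusted p = 0.0586), Wdr46 in 13 (not without DMSO replicate 1 or oligomycin replicate 2) and Eri1 in 12. Znhit6, Rpp38, Pelp1, Skiv2l2 and Rpap3 were called in 5 to 10 of the 15, with the same sign in all.

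Myc, the transcription factor best known for driving these genes, stood at 46.5, 60.9 and 60.6 FPKM with DMSO and 58.3, 48.5 and 42.2 with oligomycin. Its groups overlapped and it was not called (log2 change -0.17, 95% interval -0.54 to 0.19, adjusted p = 0.435). Of 10 tested genes, made up of Myc, its network and Maf1, which is not part of that network, 2 rose and 3 fell. Maf1 was not called. Mxd3, Mxi1 and Mxd1, members of the MXD family that compete with Myc for its partner Max, fell, from 22.7 ± 2.97 to 9.44 ± 1.03, from 18.8 ± 2.25 to 9.53 ± 1.90 and from 24.7 ± 5.07 to 16.5 ± 1.76 FPKM (adjusted p = 0.000555, 0.00432 and 0.0328). Mxd4, of the same family, rose from 8.18 ± 2.05 to 18.2 ± 4.49 FPKM and Mga, a Max partner, from 10.7 ± 1.36 to 14.9 ± 0.693 (adjusted p = 0.00682 and 0.0263). Max itself stood at 25.7 ± 4.38 and 29.6 ± 2.40 FPKM and was not called. Mxd1 and Mga were each called in 12 of the 15 settings, with adjusted p-values of up to 0.105 and 0.0899.

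The cytosolic ribosomal proteins, the parts that these factors assemble, rose in most of their genes. Of 75 tested ribosomal protein genes 44 rose, 0 fell and 31 were not called, with a median change of 0.57, against 3, 1 and 35 of the 39 assembly genes and their median of 0.06. The median deviation of the ribosomal protein genes was 0.36, 0.25 and 0.30 in the oligomycin libraries and -0.24, -0.25 and -0.38 in the DMSO libraries, apart in all 6, while that of the assembly genes overlapped. The difference between the lists was not tested. Reads of ribosomal protein genes can match their many pseudogenes, and the sources used here do not give how such reads were counted.

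**Figure D4:**
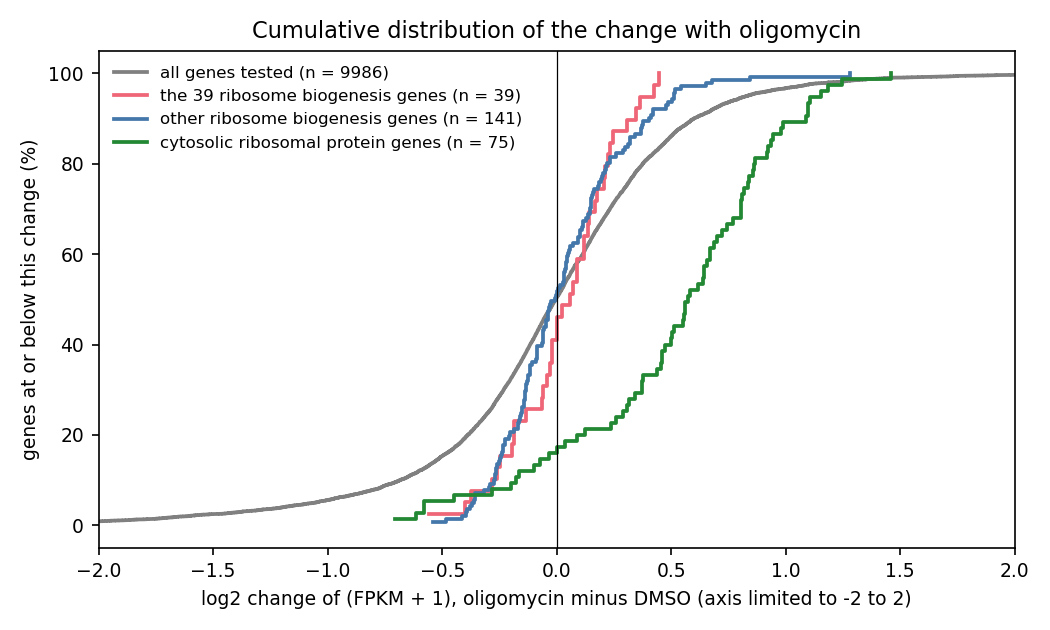
Cumulative share of genes by log2 change of (FPKM + 1), oligomycin minus DMSO, for all tested genes (grey), the 39 ribosome biogenesis genes (red), 141 further genes of the pathway (blue) and 75 cytosolic ribosomal protein genes (green). The red and blue curves are steeper than the grey one around 0, and the green curve lies to the right, with a median of 0.57.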

How the data were processed

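The authors deposited 1 table with FPKM per gene and library, per the file headers; per the submitters' processing notes Cuffdiff 2.2.1.3, Cuffnorm 2.2.1.1, Cufflinks 2.2.1.0 and TopHat2 2.1.0 were used with the mouse build GRCm38. Annotation, scaling between libraries, strand and handling of reads with several matches: not given in the sources used here. Columns were mapped to groups by name. Depth is unknown: within 1%, at most 28.6% of rows with a 0 shared a ratio between any pair of libraries. Starts are printed with 1 added (16 of 39 then match GENCODE M21, 1 without).

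log2(FPKM + 1) was tested with limma 3.58.1 (R 4.3.3; intensity trend, group only, 2-sided, Benjamini-Hochberg) over the 9986 rows with at least 1 FPKM in at least 3 of 6 libraries, after tests on simulated data. Errors are SD over 3 libraries or the fitted SE. Alternatives were a pseudocount of 0.1, other filters (none, 5 FPKM), other scalings (quantile, median, common sum without 184 small RNA rows), no trend, no rows sharing a locus, and leaving out each library. No test was run on a list as a whole. The genes and lists, though listed by name, were chosen with earlier results of these data known. Library values are given for called genes, for the smallest and largest p in each role and for a fixed set (Npm1, Ncl, Fbl, RNA polymerase I subunits, Pes1, Bop1, Wdr12); Nhp2, Nop10, Utp20, Bms1 were added after their values were seen. In the other lists, up to 3 genes in each direction with the smallest p are named. Of the listed Th17 marker genes, some are not reported here.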

Additional observations from a re-analysis of the deposited data

How the results depend on the processing

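Without any 1 library, the number of all tested genes called ran from 780 to 1387 that rose (1403 with all libraries) and from 989 to 1861 that fell (1610). Of the 39 genes between 0 and 2 rose and between 0 and 5 fell, with a median change from -0.06 to 0.11, and in the 6 further lists 6 to 11 rose and 1 to 10 fell. Quantile normalization gave 5 of the 39 genes that rose (Ddx21 and Tsr1 in addition) and a median of 0.20. Over all tested genes 1549 of 9986 rose and 1444 fell with that normalization, with a median of 0.03. In the further lists 3 genes fell with quantile normalization, 1 with a common FPKM sum and 2 without the intensity trend. In those lists 14 rose in the report, 19 with quantile normalization, 21 with the common sum and 10 without the trend. Scaling to a common FPKM sum without small RNA rows moved the median of all genes from -0.0044 to 0.10 and gave 1914 genes that rose and 1276 that fell; the median of the 39 genes was 0.17 there, with the same numbers called (3 and 1). With another pseudocount, either other filter or median scaling, 3 of the 39 genes rose and 1 fell, as in the report. With no rows sharing a locus 3 rose and 1 fell too, but only 29 of the 39 genes were tested there. Signs turned only in uncalled genes. Under quantile normalization and under the common sum these were Gnl3 (0.13 and 0.081), Nop56 (0.14 and 0.047), Dkc1 (0.092 and 0.049), Pes1 (0.075 and 0.088), Wdr74 (0.089 and 0.067) and Ddx56 (0.062 and 0.090), and under quantile normalization also Rrp1 (0.011). Without any 1 library the changes ran from -0.39 to 0.0072 in Ncl, -0.058 to 0.26 in Mybbp1a, -0.10 to 0.026 in Gnl3, -0.17 to 0.00081 in Nop56, -0.15 to 0.13 in Nop58, -0.21 to 0.084 in Dkc1, -0.076 to 0.065 in Nop2, -0.098 to 0.076 in Pes1, -0.13 to 0.11 in Wdr12, -0.15 to 0.046 in Wdr74, -0.056 to 0.16 in Ddx18 and -0.14 to 0.076 in Ddx56. The cause of these changes was not tested. No paired analysis was possible because the numbers in the sample titles (17, 42 and 43, each once in either group) are on no column of the table, and whether the column numbers stand for them is not known. The depth is unknown and 3 libraries a group limit the precision; the smallest called change of the 39 genes was 0.35 in size (Nob1).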

Other observations

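RNAs of the ribosome assembly line that are not translated also had rows. The row of the ribosomal RNA precursor, Rn45s, was listed at 12615 FPKM in DMSO replicate 1 and at 12640 in oligomycin replicate 3 and at 0 in the 4 other libraries, so it passed no filter and gives no comparison. Rmrp, the RNA of RNase MRP, stood at 139701, 124200 and 117567 FPKM with DMSO and 189092, 151529 and 178337 with oligomycin. Its groups did not overlap, but limma made no call (log2 change 0.44, SE 0.56, adjusted p = 0.573). That SE includes variance that limma takes from other rows of similar level. The group values of Rmrp itself were 127156 ± 11359 and 172986 ± 19345 FPKM (mean ± SD). Rpph1, the RNA of the related RNase P, stood at 67363, 59924 and 70739 FPKM against 67338, 64956 and 69466 (adjusted p = 0.963). Rmrp and Rpph1 are short, and division by length raises their FPKM.

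Of the 39 genes 10 shared their locus with another row, and without strand or annotation details their reads may not be fully told apart. The 16 rows concerned held 8 small nucleolar RNAs, which guide modification of ribosomal RNA and lie within such host genes, and 6 of the 8 were at 0 in at least 1 library. Snord19, at the locus of Gnl3, stood at 9824, 11111 and 7816 FPKM with DMSO and 14698, 27371 and 28055 with oligomycin (adjusted p = 0.0316), while Gnl3 itself had a change of -0.03. Other rows of that locus went the other way: Glt8d1 fell from 5.58, 5.59 and 5.35 FPKM to 2.90, 3.90 and 3.51 (adjusted p = 0.0176), Spcs1 was below in all oligomycin libraries but not called (adjusted p = 0.0867), and Snord69 stood at 7830.2, 7208 and 7563 against 9462, 0 and 1786 (adjusted p = 0.213). Mpp1, which shares its locus with Dkc1, fell from 26.6, 26.2 and 22.8 FPKM to 11.3, 16.6 and 13.5 (adjusted p = 0.00465), while Dkc1 had a change of -0.06. Idh3b, at the locus of Nop56, fell as well (adjusted p = 0.0494), while Nop56 had a change of -0.06.

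The rank correlation of the annotated transcript length (GENCODE M21) with the log2 change was 0.31 over the 39 genes, 0.24 over 134 genes of the 6 further lists and 0.19 over 8664 tested genes with a length. All genes come from the same 6 libraries and are not independent, so these are descriptions. The longest transcripts of the 39 genes, those of Wdr12 (10012 bases), Polr1a (9216), Utp20 (8821) and Ncl (8202), had changes of 0.02, 0.45, 0.36 and -0.19. The transcripts of the called genes Rrp9 (1586), Utp3 (1629) and Nob1 (1658) were among the shorter ones, against a median of 2491 bases.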
